A study of Mus musculus with 27 samples.

Results

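A set of 10 genes for photoreceptor transcription factors were followed through retinal development: Otx2, Crx, Rorb, Prdm1, Neurod1, Nrl, Nr2e3, Mef2c, Mef2d and Esrrb. They were chosen by name, as 10 of the 38168 features in the table, and all 10 passed the filter on low values. The data are RNA-seq of total RNA from whole retinas of wild type C57BL/6J mice, with no allele or treatment differing between groups. Groups were embryonic day 14 (E14, 3 libraries), E17 (3), postnatal day 1 (P1, 4), P6 (3), P15 (4), P28 (4) and P60 (6). Embryonic libraries were pools of retinas from several embryos and postnatal ones came from several mice, except that P60 mixed pools with single mice in libraries that the sources used here do not tell apart. Sexes were mixed up to P1 and males were used from P6, so sex and age cannot be told apart across that step. Levels are in CPM, the reads of a feature scaled to a common library total, and totals ran from 7076646 to 11330762 reads per library.

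Photoreceptors arise from retinal progenitors in a fixed sequence, with cones born mostly before birth and most rods around and after it. The homeodomain factor Otx2 sets cells on the photoreceptor path and remains in bipolar cells, and its relative Crx drives many genes of both rods and cones. Rorb, a nuclear receptor, and Prdm1, a zinc finger repressor that holds bipolar genes down, act in precursors, and Neurod1 is a basic helix-loop-helix factor of photoreceptors and amacrine cells. Nrl, a leucine zipper factor of the Maf family, directs the rod fate, and Nr2e3, a nuclear receptor downstream of it, represses cone genes in rods. Mef2c and Mef2d are MADS-box factors of maturing neurons and muscle, and Esrrb is an orphan nuclear receptor of rods.

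The labelled tissue was checked against marker lists. The summed level of 18 rod phototransduction and disc genes had a median of 469.6 CPM at E14 and 43229 CPM at P60, and that of 8 progenitor markers went from 5913 to 34.5 CPM. Summed markers of retinal pigment epithelium (8 genes), in which Otx2 is also expressed, ran from 4.85 to 84.1 CPM over the libraries, with the highest value at P15, and the part of that tissue in the Otx2 levels was not tested. Lens (6 of 8 genes listed), blood (6), microglia (7) and striated muscle (3 of 7 listed) markers summed to at most 10.3, 50.6, 26.1 and 9.61 CPM. In whole retina, fewer cells of a type and less RNA per cell cannot be told apart.

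The order in which the genes came on and peaked is the question the series of ages addresses. All 10 genes varied over the 7 ages (limma F test with Benjamini-Hochberg adjustment), against a background of 83.0% of all 31760 features tested. Of these, 5 genes (Otx2, Rorb, Prdm1, Neurod1 and Mef2d) were already at 10% or more of their highest age mean at E14. Crx reached that mark at E17, Nrl, Nr2e3 and Mef2c at P1, and Esrrb at P15. For Rorb, Otx2, Neurod1 and Mef2d the highest age mean was under 10 times the lowest (ratios 4.03, 4.20, 6.18 and 6.67). Their place at E14 was thus fixed by their range. By another mark, a called log2 fold of at least 1 over E14, the first age was E17 for Otx2, Crx, Neurod1, Nrl, Nr2e3 and Esrrb. That age was P1 for Prdm1, Mef2c and Mef2d, and Rorb had none. Rorb and Prdm1 had their highest mean at P1, Otx2, Neurod1, Crx and Nr2e3 at P6, Nrl, Mef2c and Esrrb at P28 and Mef2d at P60. For the last 4 genes limma called no step after P15, although the P28 libraries of Mef2c and Esrrb all lay above those of P15. The ratio of highest to lowest age mean ran from 4.03 for Rorb and 4.20 for Otx2 to 375 for Esrrb, 398 for Nrl and 807 for Nr2e3.

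**Figure D1:**
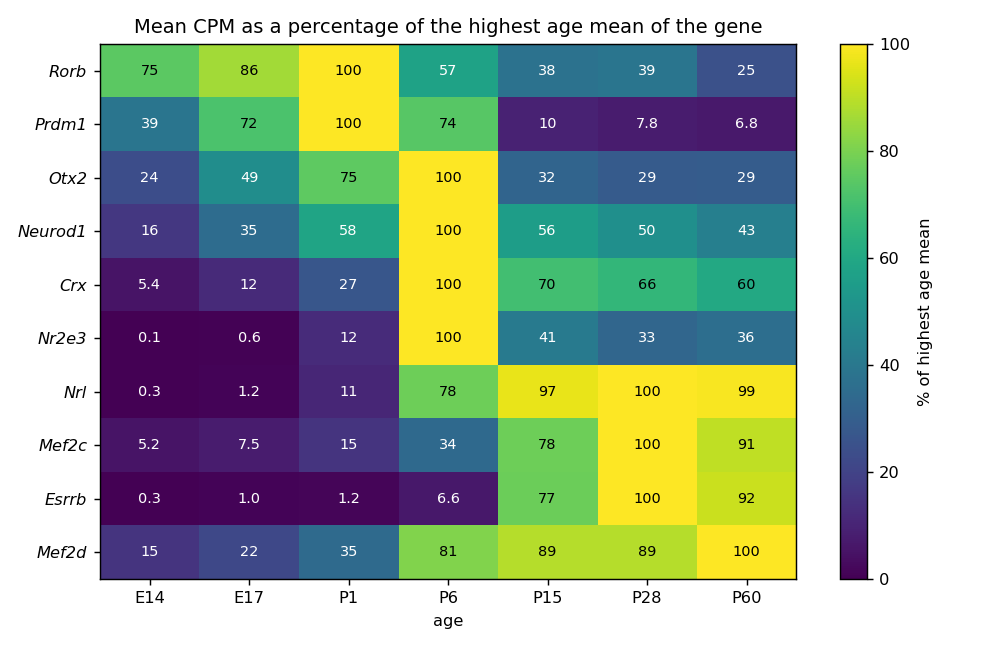
Mean CPM at each age as a percentage of the highest age mean of the same gene, with genes (rows) in order of the age of their highest mean and ages in columns. The filled maximum moves from P1 for Rorb and Prdm1 to P6 for 4 genes and to P28 or P60 for the last 4.

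The early pair was Rorb and Prdm1. Rorb (chr19:18930605-19111196, minus strand, GRCm38) was the most abundant of the genes per kilobase of exon from E14 to P1, at 232 ± 3.23 CPM per kb at E14 (SD, n = 3). Its libraries held 2533, 2567 and 2604 CPM at E14, 3049, 2845 and 2978 CPM at E17 and 3535, 3145, 3371 and 3663 CPM at P1. Libraries of these 3 ages did not overlap, yet the steps were not called (log2 fold 0.20 ± 0.11 and 0.21 ± 0.11, SE; adjusted p = 0.334 and 0.270 in limma), while P1 was called above E14 (0.41 ± 0.11, adjusted p = 0.0032). In a fit of E14 and E17 alone the first step was called (adjusted p = 0.0100). Rorb then fell to 1838, 2037 and 2039.7 CPM at P6, a log2 change of -0.80 ± 0.11 (adjusted p = 2.545e-07), and fell again at P15, to between 1232 and 1362 CPM. All P6 libraries lay below all E14 libraries.

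Prdm1 (chr10:44437177-44528501, minus strand) rose by more than Rorb up to P1 and then fell further. It stood at 126, 108 and 109 CPM at E14, 218, 212 and 204 CPM at E17 and 303, 296, 284 and 297 CPM at P1, with no overlap between the ages. At P6 it was 201, 226 and 228 CPM, below every P1 library and not different from E17 (log2 fold 0.04 ± 0.12, adjusted p = 0.80). At P15 the libraries held 27.6, 32.1, 29.7 and 23.6 CPM, a log2 change of -2.91 ± 0.11 against P6 (limma, adjusted p = 1.293e-19), the steepest fall of any of the 10 genes between neighbouring ages. Prdm1 was the lowest of the 10 per kilobase at P15, P28 and P60, with 3.59 ± 0.57 CPM per kb at P60 (SD, n = 6).

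Otx2, Neurod1, Crx and Nr2e3 shared a highest mean at P6, and for none of them did another age match it. The stretches upstream of Crx and Nr2e3 are shown because both genes peaked at P6 from an E14 mean below 10% of that peak. They lie in the 250 bases before a RefSeq start on GRCm38.p6, leave out bases of annotated exons, and read 5′ to 3′ on the minus strand. The first is chr7:15879969-15880205 and the second chr9:59950118-59950329. The second lies inside the Nr2e3 span given below, so the bases before the start of that span were neither shown nor searched. Capitals mark the reverse complement of TAATCC, the core bound by CRX and OTX factors, and the second stretch holds none.
Crx: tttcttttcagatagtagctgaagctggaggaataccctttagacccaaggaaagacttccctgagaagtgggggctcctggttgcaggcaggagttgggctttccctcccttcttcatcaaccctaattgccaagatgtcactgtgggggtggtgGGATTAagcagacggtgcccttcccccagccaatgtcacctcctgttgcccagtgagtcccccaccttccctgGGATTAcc
Nr2e3: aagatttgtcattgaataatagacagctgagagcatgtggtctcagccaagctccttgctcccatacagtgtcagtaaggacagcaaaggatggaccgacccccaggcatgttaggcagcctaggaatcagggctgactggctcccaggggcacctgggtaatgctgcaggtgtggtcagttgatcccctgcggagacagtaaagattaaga

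The 2 cores of Crx start 94 and 21 bases before the annotated start, and Otx2 held 1 in one of its windows. Both strands of 17 windows of the 10 genes (250 bases before to 50 after a start) were searched for TAATCC, and 2 held it (11.8%), against 7.06% of 32851 windows of all genes. Of the other motifs searched, TGCTGA (a MAF element core) was in windows of 5 genes (Mef2c, Mef2d, Neurod1, Otx2 and Rorb; 35.3% of the 17 windows, 19.5% of all), CAGATG (an E-box) in 3 genes (Mef2c, Nrl and Otx2; 17.6% against 17.2%), AGGTCA (a nuclear receptor site core) in Mef2c (11.8% against 16.3%) and CTATTT (the start of a MEF2 element) in Rorb (5.88% against 12.1%). A match describes the letters only.

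Crx (chr7:15865947-15879968, minus strand) climbed by similar log2 steps up to P1, of 1.11 and 1.16, and then by a larger one. Its libraries held 79.7, 78.6 and 82.3 CPM at E14, 179, 171 and 174 CPM at E17, and 410.4, 375, 378 and 409 CPM at P1. At P6 they held 1449, 1494 and 1479 CPM, a log2 fold of 1.91 ± 0.06 over P1 (SE; limma, adjusted p = 1.994e-21). The ages did not overlap at any of these steps. Crx then fell to 1000.2, 1013, 1061 and 1046 CPM at P15 (log2 fold -0.52 ± 0.06, adjusted p = 9.55e-08) and kept 60.5% of its highest mean at P60. Per kilobase it was the most abundant of the 10 genes from P6 on, at 466 ± 7.19 CPM per kb at P6 (SD, n = 3).

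Nr2e3 (chr9:59942771-59960659, minus strand) had the widest range. Its E14 libraries held 7 to 10 reads, a mean of 0.825 ± 0.152 CPM (SD, n = 3), and those of E17 held 2.76, 5.74 and 3.83 CPM. The P1 libraries reached 78.6, 85.3, 92.5 and 67.0 CPM and the P6 libraries 677, 649 and 671 CPM, all above those of the age before. The P1 step, at a log2 fold of 4.03 ± 0.13 (limma, adjusted p = 1.975e-20), was the largest of any gene between neighbouring ages, and the P6 step was 3.04 ± 0.13. At P15 it held 249.9, 261, 264 and 316 CPM, below every P6 library (log2 fold -1.29 ± 0.13, adjusted p = 2.905e-09), and no later step was called. The P28 libraries, at 198 to 236 CPM, all lay below those of P15 (log2 fold -0.31 ± 0.12, adjusted p = 0.215), and a fit of these ages alone called that step (adjusted p = 0.0385). Gm7616, annotated on the opposite strand inside the Nr2e3 span but not across its exons, had age means of at most 10.8 CPM. Gm15507, on the same strand, has a span that reaches Nr2e3 exons. No values stood under that symbol, so its share of reads was not tested.

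Otx2 (chr14:48657677-48673819, minus strand) rose by smaller steps and lost more of its peak. It held 98.9, 101 and 101 CPM at E14, 227, 200.3 and 195 CPM at E17, 314, 295, 316 and 342 CPM at P1, and 385, 439 and 443 CPM at P6. Each age lay above the one before. It then fell to 146, 130.4, 136 and 133 CPM at P15, a log2 change of -1.62 ± 0.07 (limma, adjusted p = 8.646e-18), and P60 (116 to 130.1 CPM, median 123) kept 29.1% of the highest mean. Otx2os1, on the opposite strand, had age means of 0.446 CPM at E14 to 10.6 CPM at P60, and whether counting used strand is not stated in the sources used here. Gm49154, on the same strand, also reaches Otx2 exons by its span and had no values under that symbol.

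Neurod1 (chr2:79452521-79456751, minus strand) followed a like course with a milder fall. It held 97.0, 101 and 97.9 CPM at E14, 207, 226 and 214 CPM at E17, 401, 311, 361 and 351 CPM at P1, and 610.2, 594 and 625 CPM at P6. The P15 libraries, at 338, 349, 335 and 334 CPM, lay below all P6 libraries (log2 fold -0.84 ± 0.08, adjusted p = 1.856e-09 in limma) and within the P1 range. Cerkl is annotated on the same strand across the Neurod1 exons, and its age means went from 27.3 CPM at E14 to 296 CPM at P6 and 152 CPM at P60. How reads were split between these 2 genes is not stated in the sources used here, so the Neurod1 values are uncertain to that extent. Gm26755, on the opposite strand, also reaches Neurod1 exons by its span and had no values under that symbol.

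**Figure D2:**
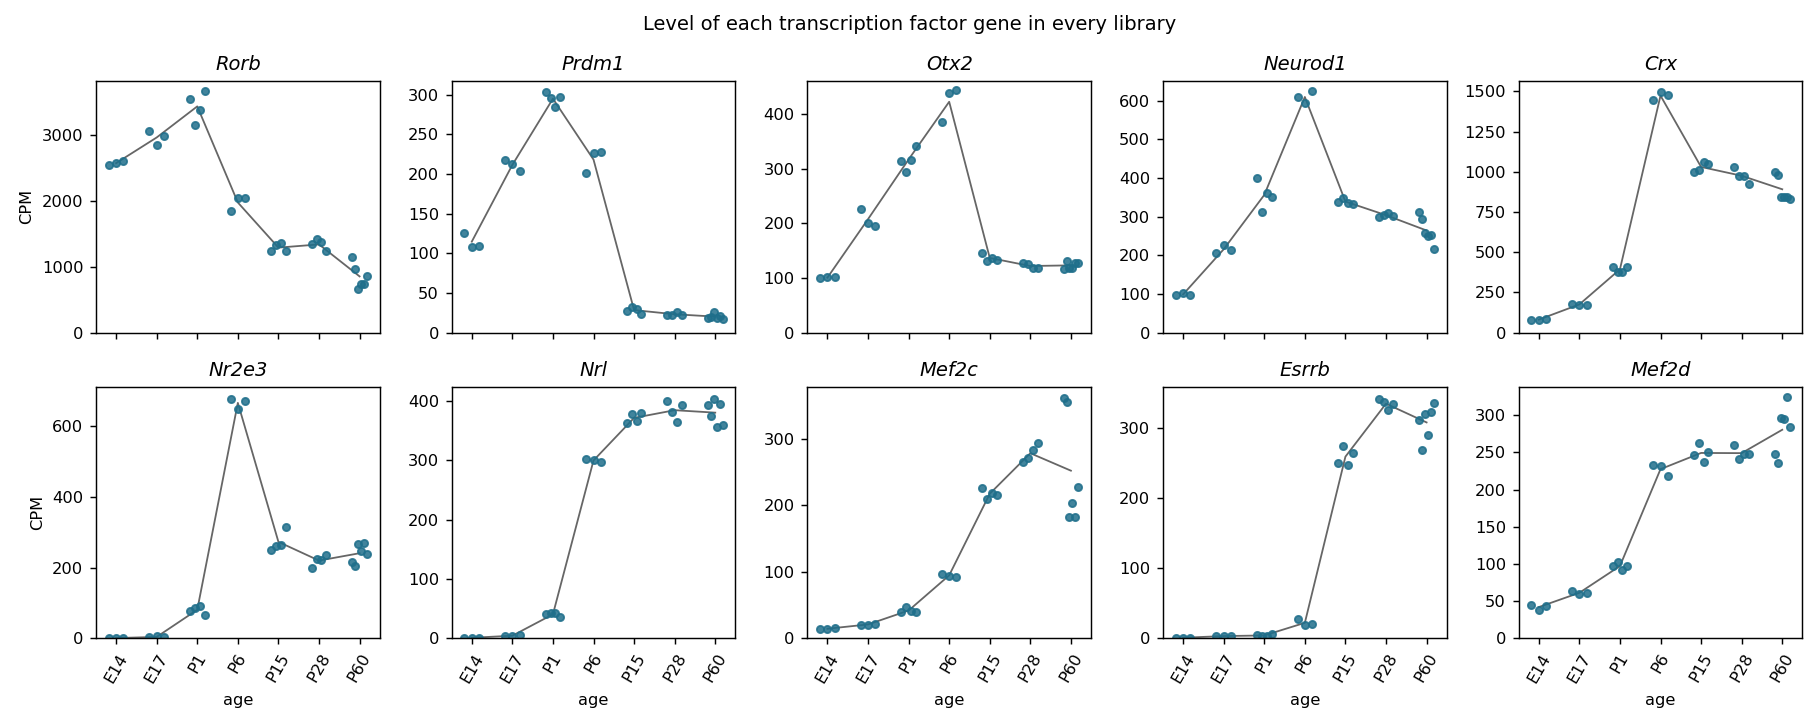
CPM (linear axis from 0, its own scale in each panel) of the 10 genes in each of the 27 libraries by age. Points are single libraries and the line joins the age means. Crx and Nr2e3 stand highest at P6, at 1449 to 1494 and 649 to 677 CPM, whereas Nrl, Mef2c, Esrrb and Mef2d stay high to P60.

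Nrl (chr14:55518978-55524981, minus strand) rose at the same ages as Nr2e3 but did not fall afterwards. It held 1.10, 0.738 and 1.05 CPM at E14 (7 to 11 reads), 3.68, 4.77 and 4.97 CPM at E17, 41.7, 42.4, 42.5 and 35.5 CPM at P1, and 302, 299.6 and 296 CPM at P6. The steps were log2 folds of 1.48 ± 0.09, 2.93 ± 0.09 and 2.86 ± 0.09 (SE; limma, adjusted p = 1.053e-13, 2.13e-21 and 1.54e-22), with no overlap between ages. A further rise of 0.31 ± 0.09 at P15 (adjusted p = 0.0054) was called, to 362, 378, 365 and 379 CPM. At P60 the libraries ran from 355 to 403 CPM with a median of 384, and the last 3 ages overlapped.

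Esrrb (chr12:86361117-86521628, plus strand) came on last by the mark of 10% of the highest age mean. Its libraries held 1.10, 0.633 and 0.947 CPM at E14 (6 to 11 reads), 3.58, 3.27 and 2.90 CPM at E17, 4.29, 2.77, 3.73 and 5.80 CPM at P1, and 27.4, 18.5 and 20.5 CPM at P6. From these low levels E17 was already called above E14 (log2 fold 1.17 ± 0.15, adjusted p = 3.476e-07 in limma). E17 and P1 overlapped (log2 fold 0.25 ± 0.14, adjusted p = 0.33), and P6 was called above P1 (2.18 ± 0.14, adjusted p = 1.444e-14). At P15 it reached 251, 274, 248 and 264 CPM, a log2 fold of 3.51 ± 0.14 over P6 (limma, adjusted p = 4.483e-19), when no other of the 10 genes rose by more than 1.19. The P28 libraries held 342, 337, 325 and 334 CPM, above all P15 libraries, although that step was not called (0.37 ± 0.13, adjusted p = 0.130). With edgeR and DESeq2 on the recovered reads, and with limma on these ages alone, the same step was called (adjusted p = 0.0313, 0.0082 and 0.0012).

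Mef2c (chr13:83504034-83667080, plus strand) and Mef2d (chr3:88142372-88172086, plus strand) rose at nearly every age up to a plateau. Mef2c held 13.4, 14.2 and 15.7 CPM at E14 and 38.9, 47.6, 40.6 and 40.1 CPM at P1, against 20.4, 20.6 and 21.7 CPM at E17. It then held 97.2, 94.3 and 92.5 CPM at P6, and 225, 209.6, 218 and 216 CPM at P15. The P6 and P15 steps were of like size, at log2 folds of 1.16 ± 0.16 and 1.19 ± 0.16 (SE; limma, adjusted p = 3.591e-07 and 4.321e-07). The P28 libraries, at 265 to 294 CPM, all lay above those of P15 (0.35 ± 0.15, adjusted p = 0.239), a step that was called in a fit of these ages alone (adjusted p = 0.0019). A second entry with the symbol Mef2c was lower at every age, from a mean of 5.02 CPM at E14 to 96.8 CPM at P28, and had the same age of highest mean. Summed markers of endothelial cells (7 genes), which also express Mef2c, had a median of 173 CPM at E14, 475 CPM at P1, 267 CPM at P6 and 157 CPM at P28, but Kdr alone, at a mean of 457 CPM at P1 and 238 CPM at P6, made up most of it, and 5 of the 7 were called higher at P6 against P1. Their part in the Mef2c levels was not tested.

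The stretch upstream of another RefSeq start of Mef2c, which lies inside the gene span, is shown because it held 4 matches to 3 of the motifs. The stretch is chr13:83573357-83573606 on the plus strand of GRCm38.p6. Capitals mark, in order, the E-box, a nuclear receptor site core on the opposite strand, the MAF element core and a second nuclear receptor site core on the opposite strand, with the letters given above.
Mef2c: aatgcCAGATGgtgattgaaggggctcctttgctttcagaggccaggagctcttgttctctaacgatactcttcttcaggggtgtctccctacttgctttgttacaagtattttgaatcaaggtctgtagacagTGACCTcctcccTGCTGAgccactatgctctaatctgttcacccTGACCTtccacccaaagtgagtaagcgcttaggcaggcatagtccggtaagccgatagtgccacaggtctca

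Mef2d held 44.5, 38.7 and 42.8 CPM at E14, 63.5, 59.7 and 60.5 CPM at E17, 97.1, 102, 92.3 and 97.0 CPM at P1, and 233, 231 and 218 CPM at P6. Its P6 step was a log2 fold of 1.22 ± 0.08 (limma, adjusted p = 8.277e-14). P15 (237 to 263 CPM) lay above all P6 libraries but was not called (0.13 ± 0.08, adjusted p = 0.230). The gene on the opposite strand, 1700113A16Rik, had age means of at most 12.3 CPM.

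Read step by step, 8 of the 10 genes were called higher and none lower at E17 against E14, where 7.56% of all features were called higher and 3.02% lower, with Rorb and Mef2c not called. Mef2c missed the threshold narrowly there (log2 fold 0.51 ± 0.17, adjusted p = 0.0502 in limma) and was called when any 1 of the first 5 P60 libraries was left out. In limma Mef2c was also called with a pseudocount of 0.1, a mean of at least 10 CPM, median-of-ratios scaling, the replicate block, summed entries and only the ages compared (adjusted p = 0.0040 to 0.0476). It was not called with edgeR or DESeq2 (adjusted p = 0.0716 and 0.0735). At P1 against E17, 8 were higher and none lower (5.77% and 3.43% of all features), with Rorb and Esrrb not called. At P6 against P1, 8 were higher and 2 lower (18.0% and 20.4% of all features). At P15 against P6 the direction turned, with 3 higher (Nrl, Mef2c and Esrrb), 6 lower and Mef2d not called (14.4% and 19.0%). Where a doubling was required as well, 3, 6 and 5 of the 10 were called at P1, P6 and P15 (1.84%, 13.0% and 8.05% of all features in either direction). At E17 all 10 genes had libraries that did not overlap those of E14, as had 36.8% of all features. The median log2 fold of the 10 genes was 1.07, 0.69, 1.19 and -0.57 at these 4 steps, while that of all features lay between -0.06 and 0.03.

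**Figure D3:**
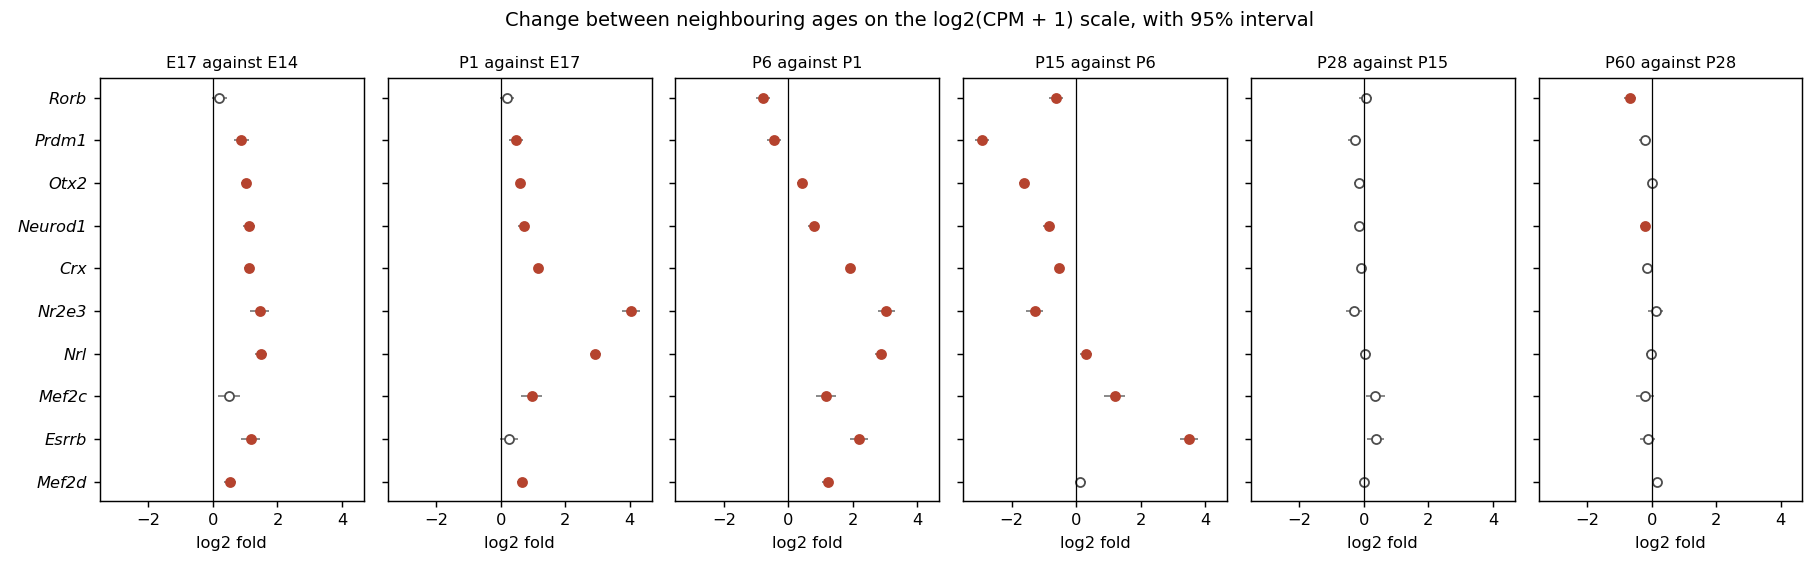
Log2 fold on the log2(CPM + 1) scale (horizontal axis) of the 10 genes (rows) for the 6 steps between neighbouring ages. Bars are 95% intervals, filled points are calls at an adjusted p under 0.05 and open points are not called. Points lie to the right up to P6 for most genes, split at P15 and stay near 0 at P28 and P60.

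Between neighbouring ages after P15 little was called. Over the longer span, limma called Rorb, Prdm1, Neurod1 and Crx lower at P60 than at P15. Their log2 folds were -0.62, -0.48, -0.37 and -0.21 (adjusted p = 9.071e-06, 0.0003015, 0.0003749 and 0.003805). Crx and Prdm1 libraries of these ages overlapped. The other genes were not called over that span, and its share over all features is not reported here. At P28 against P15 limma called none of the 10 genes (2.72% of all features in either direction), whereas edgeR and DESeq2 called 1, Esrrb (and 676 and 979 of all features). Libraries of the 2 ages did not overlap for 5 of the genes (11.5% of all features). At P60 against P28 limma called 2 lower, Rorb and Neurod1, and none higher (8.11% and 4.80% of all features), and none with a doubling as well (0.453%). Rorb held 1336, 1410.4, 1367 and 1229 CPM at P28 and 663 to 1148 CPM at P60 (median 802), without overlap (log2 fold -0.67 ± 0.09, adjusted p = 6.752e-05). It was the only gene of the 10 whose P28 and P60 libraries did not overlap, as was so for 4.13% of all features. The Rorb call was lost in a fit of these 2 ages alone (adjusted p = 0.118), and the replicate block, edgeR and DESeq2 kept it. The Neurod1 call (-0.21 ± 0.07, adjusted p = 0.0481) was lost when any 1 of 22 of the 27 libraries was left out (adjusted p up to 0.113), and also with a pseudocount of 0.1, no filter, median-of-ratios scaling, the replicate block, edgeR, DESeq2 and these ages alone (adjusted p = 0.0523 to 0.260). DESeq2 called Mef2d higher instead (log2 fold 0.25, adjusted p = 0.0354).

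The P60 libraries did not form an even group. At this age 2 libraries were pools of 3 mice and the rest were single mice. The sources used here do not say which ones, so whether the split below follows pooling was not tested. Mef2c held 360.5 and 355 CPM in replicates 1 and 2, above every P28 library (265 to 294 CPM), and 183, 203, 182 and 228 CPM in replicates 3 to 6, below every P28 library. Mef2d ran the other way, at 248 and 236 CPM in replicates 1 and 2 and 297, 294, 324 and 284 CPM in the others. Crx held 1001 and 981 CPM in replicates 1 and 2 and 832 to 846 CPM in the rest, and Rorb 1148 and 957 CPM against 663 to 863 CPM. Neurod1 held 312 and 295 CPM in replicates 1 and 2 (103% and 97.0% of its P28 mean) and 216 to 259 CPM in the rest (71.3% to 85.2%). Nr2e3 ran the other way, at 216 and 206 CPM against 239 to 269 CPM. Nrl did not separate these libraries, at 392 and 375 CPM in replicates 1 and 2 and 355 to 403 CPM in the rest, nor did Otx2, Prdm1 and Esrrb.

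The same division was seen outside these genes. Summed cone genes (10) were 683 and 673 CPM in replicates 1 and 2 and 822 to 974 CPM in replicates 3 to 6, and the median CPM over all features was 4.07 and 3.94 against 2.89 to 3.92. The part of these differences in the P60 values was not tested. Without P60 replicate 1, or without P60 replicate 2, 5 of the 10 genes were called at P60 against P28, with Mef2d higher and Rorb, Neurod1, Crx and Mef2c lower. The share of all features called in those fits was not computed, so the count has no background beside it. Without P60 replicate 3, Prdm1 was called lower (adjusted p = 0.0400 in limma).

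**Figure D4:**
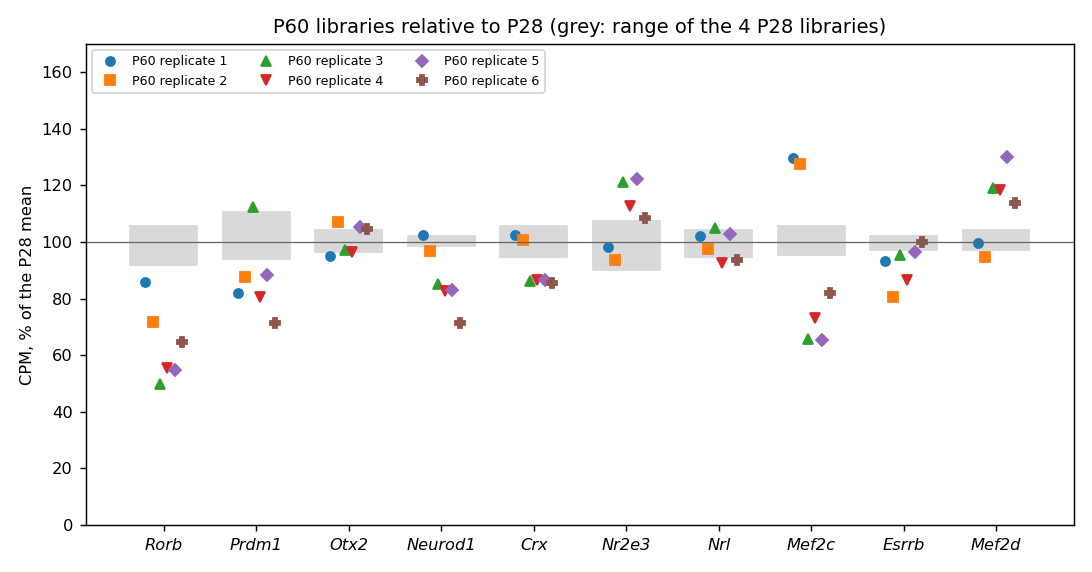
CPM of the 10 genes in each of the 6 P60 libraries (symbols) as a percentage of the P28 mean, on a linear axis from 0; grey boxes span the 4 P28 libraries. Replicates 1 and 2 lie at 130% and 128% for Mef2c and replicates 3 to 6 at 65.4% to 81.9%, while all 6 lie below the grey box for Rorb.

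Between mature (P15, P28 and P60) and embryonic (E14 and E17) retina, 7 genes were called higher and 3 lower (35.0% and 40.4% of all features). Log2 folds were 6.86 ± 0.06 for Nrl, 6.73 ± 0.09 for Esrrb, 6.34 ± 0.08 for Nr2e3, 3.74 ± 0.10 for Mef2c, 3.01 ± 0.04 for Crx, 2.33 ± 0.05 for Mef2d and 1.04 ± 0.05 for Neurod1 (SE). They were -2.68 ± 0.07 for Prdm1, -1.29 ± 0.07 for Rorb and -0.19 ± 0.05 for Otx2. The folds of Nrl, Nr2e3 and Esrrb are understated, because 1 CPM was added to E14 values near 1. The median over all features was -0.07 in limma and 0.04 in edgeR. The Otx2 call (adjusted p = 0.00056 in limma) was lost in edgeR (log2 fold -0.08, adjusted p = 0.121). For both Otx2 and Neurod1, mature libraries overlapped the embryonic ones.

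Ratios of 2 genes in the same library show how the set was recomposed. Each was taken as (CPM + 1) over (CPM + 1), and all 6 pairs examined varied with age (permutation F test over ages, 27 libraries, p = 1e-05 before and after adjustment over 6 pairs, the smallest that 100000 permutations can give). Crx to Otx2 was 0.800 at E14, 1.24 at P1, 3.49 at P6 and 7.96 at P28. Prdm1 to Otx2 went down from 1.14 at E14 to 0.932 at P1, 0.518 at P6 and 0.168 at P60. The steepest change in both ratios came between P1 and P15.

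The rod factors also changed relative to each other, in ratios that are not corrected for gene length. Nrl to Crx rose at every age, from 0.0241 at E14 to 0.204 at P6 and 0.428 at P60. Nr2e3 to Nrl was 1.96 at P1 and 2.22 at P6, then 0.733 at P15 and 0.573 at P28. Esrrb to Nrl was 0.122 at P1 and 0.0761 at P6, then 0.699 at P15 and 0.872 at P28. The E14 values of the last 2 ratios, 0.931 and 0.962, rest on few reads and on the added 1 CPM. Mef2d to Mef2c was 2.84 at E17, 2.39 at P6 and 0.896 at P28, with an SD of 0.62 on the log2 scale at P60.

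**Figure D5:**
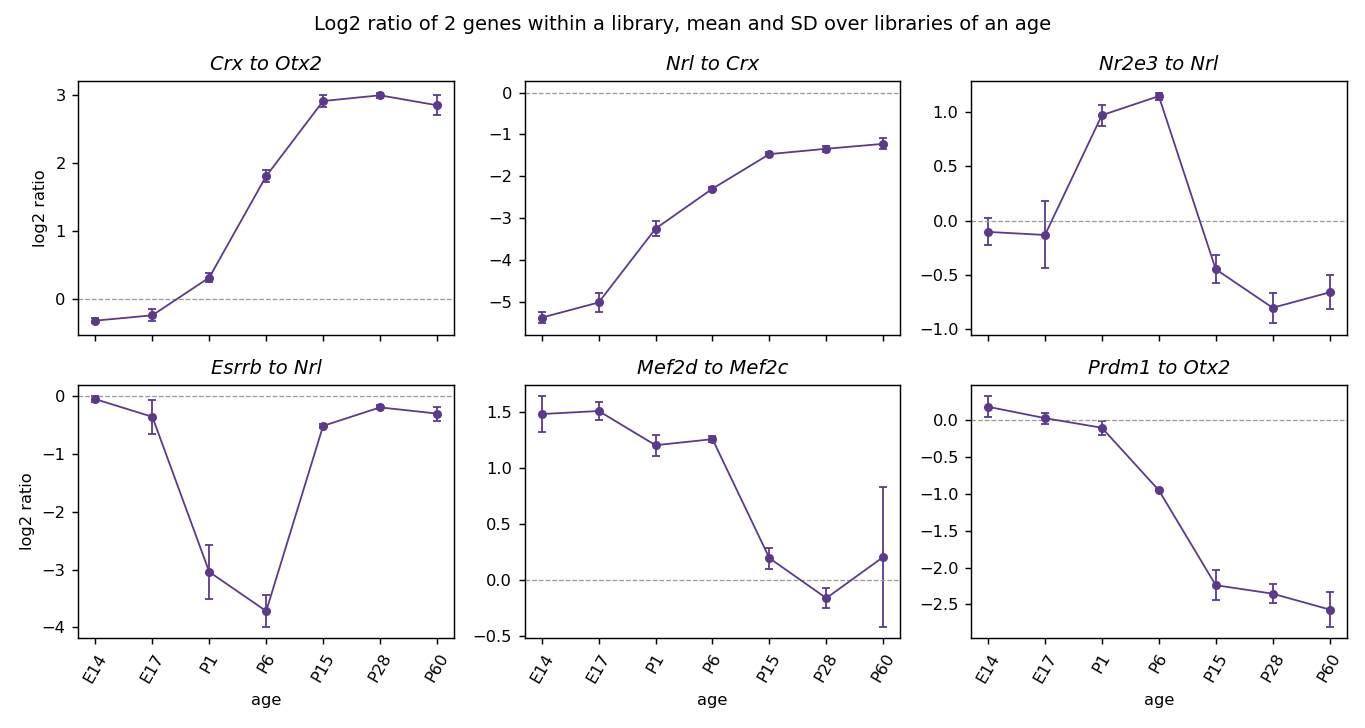
Log2 ratio of 2 genes, (CPM + 1) over (CPM + 1), within a library by age for 6 pairs. Points are age means and bars are SD over the libraries of the age; the dashed line marks equal values. Crx to Otx2 climbs to P15 and levels off, and Nr2e3 to Nrl and Esrrb to Nrl turn in opposite directions between P6 and P15.

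Among the 12332 features with a Gene ID and at least 10 CPM at their highest age, the courses most like each gene over the 27 libraries were as follows, as a description of libraries that share their ages. Samd7, a photoreceptor regulator, followed Nr2e3 (Pearson r = 0.997), ahead of Htra1 and Ankrd33b. Rp1, a rod and cone outer segment gene, followed Nrl (r = 0.996), with Pcdh15 and Pitpnm3. Impg2, a gene of the matrix between photoreceptors, followed Crx (r = 0.993), with Lifr and Stxbp5. Kcnab2 followed Esrrb (r = 0.996), with Slc24a1, the rod sodium-calcium exchanger, and Faim2. Cacna2d4, a calcium channel subunit of photoreceptor synapses, followed Mef2d (r = 0.997), with Syp and Rp1l1, and Efr3a, Cpeb3 and Slc9a7 followed Mef2c (r = 0.991 for the first).

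The early genes had other company and slightly lower r values. Prdm13, an amacrine cell regulator, followed Prdm1 (r = 0.981), with Arid2 and Kit. Features most like Rorb were 3110039C02Rik (r = 0.979), Nova1 and Dleu2. Those most like Otx2 were A630083H20Rik (r = 0.971), Trib1 and Inhbb, and those most like Neurod1 were Dlc1 (r = 0.973), Trak2 and Tnc.

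Rod phototransduction genes reached these marks later, and cone genes did not all do so. Of 18 rod phototransduction and disc genes, 1 was at 10% of its highest age mean by P1, 13 by P6 and 18 by P15, against 9, 9 and 10 of the 10 transcription factor genes. By P6, 1 of the 18 had reached 50% of its highest mean, against 8 of the 10. Of the 18, 15 were called higher at P1 and all 18 at both P6 and P15, with none lower (background 5.77%, 18.0% and 14.4% higher) and median log2 folds of 1.43, 4.18 and 1.61, and 12 of them had their highest mean at P60. Of 10 cone genes, 8 were called higher and none lower at E17, and 6 and none at P6 (background 7.56% and 18.0% higher). At P1, 4 were higher and 2 lower (background 5.77% and 3.43%). At P15, 6 were higher and 3 lower (background 14.4% and 19.0%). By E14, E17 and P1, 3, 6 and 8 cone genes were at 10%, beside 5, 6 and 9 of the 10 transcription factor genes. By P6, 5 of the cone genes had reached 50%. These lists were compared by counts only, with no test between them. The marks also depend on how widely a gene ranges over the ages. At E14 the rod genes stood at 0.0233% to 11.3% of their highest means and the cone genes at 0.311% to 23.7%. The 10 transcription factor genes stood at 0.124% to 74.9%.

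Other regulators moved in both directions, where the background at E17, P6 and P15 was 7.56%, 18.0% and 14.4% higher and 3.02%, 20.4% and 19.0% lower. Of 15 further photoreceptor regulators, such as Rax, Thrb and Lhx4, 8 were called higher and 2 lower at E17, 7 and 7 at P6, and 2 and 12 at P15. Of 13 tested family relatives of the 10 genes, such as Otx1, Rora, Maf and Mef2a, 3 were higher and 3 lower at E17, 7 and 1 at P6, and 2 and 3 at P15. Their median log2 folds were 0.38, -0.03 and -0.76 for the first list and 0.04, 0.59 and -0.01 for the second, beside 1.07, 1.19 and -0.57 for the 10 genes.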

How the data were processed

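Total RNA of mouse whole retina was made into libraries with the SMARTer total RNA kit, and the authors aligned the reads with STAR to mm10 (GRCm38). They deposited 1 table of CPM values for 38168 features (14905 without a Gene ID, and 926 symbols with more than 1 entry). The annotation and the use of strand in counting are not given in the sources used here. No column of values was left unused (0).

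Libraries were grouped by the age in their labels. For a gene with more than 1 entry, the entry with the highest mean CPM was used. A feature entered the test if 3 or more libraries reached 1 CPM (31760 did). On the log2(CPM + 1) scale, limma 3.58.1 (R 4.3.3) with a mean-variance trend took age as the only factor and used the 27 libraries in one model, with two-sided p-values adjusted by Benjamini-Hochberg across the tested features and calls at an adjusted p under 0.05. For low genes this scale makes folds too small. The value of 1 read was recovered from the steps of the CPM values (100.0% of values whole within 0.02 reads; in E14 replicate 1 the decimals alone could not decide this), and edgeR 4.0.16 and DESeq2 1.42.0 on these reads were alternatives, edgeR also without that library. Onset was the first age with a mean of at least 10% of the highest age mean. Gene spans, exons and overlapping genes came from GENCODE M21, and levels per kilobase used the union of annotated exons, which for Nrl (5.69 kb) includes retained introns. Promoter windows came from RefSeq. Fits were tested on simulated data.

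The genes, lists and tests were chosen with earlier results of these data known. Genes named are the 10, the 3 features with the highest Pearson r to each, and the lists, of which members are named as examples. Other alternatives were a pseudocount of 0.1, no filter, a mean of at least 10 CPM, median-of-ratios scaling, a replicate block, summed entries of a symbol, only the ages compared, a doubling rule and leaving out each library. Labels do not say whether all libraries are separate animals or litters, so p-values measure the spread between libraries. Intervals cover this spread, and read totals limit low values by counting error.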

Additional observations from a re-analysis of the deposited data

Results flagged for a closer look

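Of the 40 groups of 4 to 6 libraries tested (10 genes at 4 ages), 1 held a library far from the others, while chance alone flags about 1 in 20 groups. It was Nrl at P1, where replicate 4 had 35.5 CPM and the other 3 libraries 41.7 to 42.5 CPM. In the same library Nr2e3 was also the lowest of the P1 libraries, at 67.0 CPM. Otx2, Rorb and the late gene Esrrb were the highest there, at 342, 3663 and 5.80 CPM.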

How the results depend on the processing

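With a doubling required in addition to the adjusted p, 3 genes were called at P1 against E17, 6 at P6 against P1, 5 at P15 against P6 and 0 at P60 against P28. At P28 against P15, 1 gene was called with edgeR and with DESeq2, which called 676 and 979 of all features, against 864 in limma. With edgeR without E14 replicate 1 (chosen after seeing the data) 1 gene was called, and 3 in a fit of only the ages compared. The share over all features in these last 2 fits is not reported here, so their counts have no background beside them. At P60 against P28, 1 gene was called with a pseudocount of 0.1, with no filter, with median-of-ratios scaling, with the replicate block, with edgeR and with edgeR without E14 replicate 1, and 0 with only the ages compared. Of all features, edgeR called 3481 at that step, and the share in the other settings, apart from the block, is not reported here. Leaving out 1 library gave 1 to 5 there, with no share over all features computed for those fits. Replicate numbers did not pair the libraries (median r of same-numbered deviations -0.002 over 69 pairs), and the replicate block otherwise changed only the Mef2c call at E17 (adjusted p = 0.0383). The block lowered the calls over all features at P60 against P28 from 4100 to 1029. Replicate numbers 5 and 6 occur only at P60, so the block fitted those libraries exactly and its P60 estimates rest on replicates 1 to 4. Genes with the highest mean at P60 were 2 under median-of-ratios and TMM scaling, Nrl joining Mef2d, and 1 to 2 with 1 library left out. With onset at 20%, 3 genes were on by E14 and 6 came on later (Neurod1 and Mef2d at E17, Crx at P1, Nrl, Nr2e3 and Mef2c at P6). With onset at 5%, 3 came on earlier (Crx and Mef2c at E14, Esrrb at P6). Nrl came on at P6 under both scalings. Differences near 0 that were not called turned sign. Mef2d at P28 against P15 was 0.0154, 0.0149, 0.0155 and 0.016 with median-of-ratios, edgeR, DESeq2 and edgeR without E14 replicate 1, and -0.0245 to 0.0243 with 1 library left out. Nrl at P60 against P28 was 0.0535, 0.0428, 0.0567 and 0.0423 in the same settings and -0.0421 to 0.0039 with 1 library left out. Otx2 there was -0.015 with the replicate block and -0.004 to 0.0328 with 1 library left out. The cause of these changes was not tested. Scaling moved the median log2 fold of all features most for mature against embryonic, from -0.065 in limma to 0.038 in edgeR. At E14, 6 to 11 reads stood behind the Nrl, Nr2e3 and Esrrb values.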

Other observations

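The 3 libraries at P6 were not alike for the early and late genes. Replicate 1 had the lowest Otx2, Rorb and Prdm1 of the 3 (385, 1838 and 201 CPM, against at least 439, 2037 and 226 CPM) and the highest Esrrb (27.4 CPM, against 18.5 and 20.5 CPM). Its summed rod phototransduction and disc genes were also the highest, at 11558 CPM against 9560.2 and 9674 CPM, and its summed progenitor markers the lowest, at 147 CPM against 193 and 196 CPM. Nrl differed little between these libraries, at 296 to 302 CPM.

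The summed level of the 14 family relatives of the 10 genes was 1154 and 1145 CPM in P60 replicates 1 and 2 and 813 to 947 CPM in P60 replicates 3 to 6.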
